A study of Mus musculus with 135 samples.

Results

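Maternal RNA decay machinery is used here for 9 genes whose products shorten, tail or recognise the messages that an egg stores: Btg4, Cnot6l, Cnot7, Cnot8, Zfp36l2, Pabpn1l, Zcchc6, Zcchc11 and Ythdf2. They were chosen by name for their known roles, and all 9 are among the 24116 genes of each of the 7 deposited RNA tables. RNA was measured by Smart-seq2, which copies RNA from its poly(A) tail, in 107 mouse libraries. The main table holds oocytes and embryos of wild type (WT) and of mice lacking genes of the Obox family, homeobox transcription factors of the egg and early embryo. It has full-grown oocytes (FGO), metaphase II oocytes (MII), early 2-cell and late 2-cell embryos in both genotypes. The Obox-null samples are labelled Obox KO as oocytes and Obox mzKO (maternal and zygotic knockout) as embryos. It also has WT 4-cell embryos, mzKO embryos collected when controls were at the 4-cell stage, WT blastocysts, and mzKO embryos arrested at the 2-cell stage that are titled as blastocyst-time samples. There are 2 libraries per group, except 3 for the late 2-cell and 4-cell groups, and 3 single libraries of mzKO embryos given Obox157, Obox3 or Obox4. A second table holds embryos with maternal knockout alone (mKO), which can make OBOX from the paternal allele, and WT controls, with 2 late 2-cell libraries each. Another table holds single Obox+- and Obox-- embryos, with 3 libraries per group and 4 for Obox-- late 2-cell. The others hold small interfering RNA (siRNA) knockdowns, WT embryos injected with water or Obox mRNA, and embryonic stem cells (ESCs) overexpressing GFP, Obox3 or Obox5. One ESC table has WT cells, with 5 GFP libraries and 4 of each Obox, and the other has Nr5a2 KO and WT cells, with 2 libraries per treatment. Strain, age, the extent of the deletion and the number of embryos in a library are not given in the sources used here.

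The mouse egg stops transcription before it matures and lives on stored messages, most of which are destroyed between meiotic maturation and the 2-cell stage. The first step is removal of the poly(A) tail by the CCR4-NOT complex, whose catalytic subunits are a CCR4-type enzyme (CNOT6 or CNOT6L) and a CAF1-type enzyme (CNOT7 or CNOT8). BTG4 is an adaptor that brings this complex to the messages of the maturing egg, and PABPN1L is an egg-specific poly(A)-binding protein known to act with BTG4. ZFP36L2 recruits CCR4-NOT to AU-rich elements. ZCCHC6 (TUT7) and ZCCHC11 (TUT4) add uridines to short tails, and YTHDF2 binds m6A-modified messages and delivers them for decay. Several of the factors are themselves made from stored messages, so their own RNA can be followed over the same stages.

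Promoter sequences were printed for 3 genes with different RNA courses, chosen after their values were seen: Btg4, whose RNA stayed high into the 2-cell stage, Pabpn1l, whose RNA was low by the early 2-cell stage, and Ythdf2, whose RNA was highest in late 2-cell and 4-cell embryos. Each is the 250 bases before the transcription start in RefSeq, build GRCm38.p6, written in the gene's own direction with CG dinucleotides in capitals. The windows are chr9:51115751-51116000 on the plus strand for Btg4, chr8:122622736-122622985 on the minus strand for Pabpn1l and chr4:132212257-132212506 on the minus strand for Ythdf2.
Btg4: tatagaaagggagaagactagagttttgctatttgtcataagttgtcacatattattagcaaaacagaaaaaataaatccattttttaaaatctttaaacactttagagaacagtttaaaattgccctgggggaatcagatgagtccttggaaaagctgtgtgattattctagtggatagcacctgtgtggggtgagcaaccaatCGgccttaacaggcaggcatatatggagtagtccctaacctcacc
Pabpn1l: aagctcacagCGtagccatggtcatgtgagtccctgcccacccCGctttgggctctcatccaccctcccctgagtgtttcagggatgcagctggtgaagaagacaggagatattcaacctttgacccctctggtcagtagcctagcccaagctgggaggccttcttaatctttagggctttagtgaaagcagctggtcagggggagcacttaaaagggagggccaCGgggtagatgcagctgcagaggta
Ythdf2: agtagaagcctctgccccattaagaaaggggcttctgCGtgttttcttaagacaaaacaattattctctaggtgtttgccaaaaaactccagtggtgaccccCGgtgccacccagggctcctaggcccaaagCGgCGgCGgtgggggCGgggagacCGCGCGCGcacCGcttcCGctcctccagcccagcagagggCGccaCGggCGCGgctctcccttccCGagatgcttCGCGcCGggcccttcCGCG
The Btg4 window held 1 CG, the Pabpn1l window 3 and the Ythdf2 window 22, against a median of 6 over 32851 such windows of 27025 genes. As few CG as in Btg4 were found in 18.8% of all windows, and as few as in Ythdf2 in 86.7%. The G and C content was 38.0% in Btg4, 55.6% in Pabpn1l and 64.0% in Ythdf2. RefSeq windows were matched for 7 of the 9 genes, 14 windows in all, with Zcchc6 as Tut7 and Zcchc11 as Tut4. Cnot7 and Zfp36l2 were not matched. The homeobox motif TAATCC, searched as these letters on both strands, was in 0 of the 14 windows and in 6.25% of all windows.

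Levels are given as FPKM, that is fragments counted on a gene per kilobase of its transcript and per mapped library, so a level is a share of a library, and levels may be compared between genes. FPKM sums ran from 37752 to 535770, and 2167 to 10583 genes reached 1 FPKM. Both arrested mzKO libraries stood apart, with 55.4% and 71.5% of their FPKM in Rn45s (the 45S ribosomal RNA precursor), and WT early 2-cell replicate 2 reached 1 FPKM in only 5539 genes. Obox5 checked the labels: it was at 2187 to 2907 FPKM in WT MII and listed at 0 in Obox KO MII, and at 74.0 to 156 against 0 to 0.0458 in late 2-cell WT and mzKO. Obox3 went against the label in 1 library, the one labelled arrested mzKO replicate 1, at 59.7 FPKM, where WT late 2-cell embryos had 24.9 to 48.5 and the other arrested library 0. The marker list for oocytes was present in every oocyte group, with all 10 genes reaching 1 FPKM in WT MII. In the text a gene rose or fell where limma gave an adjusted p (Benjamini-Hochberg, over all genes tested) under 0.05 and a log2 fold change of at least 1, on the log2(FPKM + 1) scale. Only the spread between libraries stands behind these p-values, since the labels do not say that replicates came from separate females or cultures.

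During maturation of WT oocytes, RNA of the CCR4-NOT enzymes Cnot6l and Cnot8, the tailing enzyme Zcchc6 and the m6A reader Ythdf2 was higher in MII than in FGO. Cnot6l was at 3.53 and 3.62 FPKM in FGO and at 30.3 and 28.5 in MII. Cnot8 was at 48.8 and 23.1 in FGO and at 148 and 138 in MII. Ythdf2 was at 9.95 and 3.66, then 24.0 and 29.8. In each of these the MII libraries lay above both FGO libraries. Zcchc6, the TUT7 tailing enzyme, was at 0.883 and 0.331 FPKM in FGO and at 4.02 and 4.19 in MII, again without overlap. With limma, 4 of 9 members rose, against 25.1% of all genes tested called either way and 22.9% up: Cnot6l (log2 fold change 2.73 ± 0.58 SE, adjusted p = 0.0047), Cnot8 (2.05 ± 0.68, adjusted p = 0.028), Zcchc6 (1.69 ± 0.42, adjusted p = 0.0087) and Ythdf2 (1.96 ± 0.65, adjusted p = 0.028). The median over all genes was 0.50, so relative to it these changes were 2.23, 1.55, 1.19 and 1.46. Cnot7, the other CAF1-type enzyme, had 59.8 and 88.0 FPKM in FGO and 273 and 255 in MII, with an adjusted p of 0.056, and was called when the arrested mzKO libraries were left out of the fit (1.85, adjusted p = 0.024). Btg4 was already at 693 and 1387 FPKM in FGO and at 1905 and 2057 in MII, and Pabpn1l at 21.4 and 44.1, then 48.0 and 41.3. Neither passed the test. Both FGO and MII are transcriptionally quiet stages, and with poly(A)-primed libraries a longer tail and more RNA cannot be told apart. In each sample, likewise, fewer cells of a type and less RNA per cell cannot be told apart. All 4 calls rested on few libraries. Without WT FGO replicate 2 or WT MII replicate 1 each of the 4 was lost, and without WT MII replicate 2 all but Cnot6l, at adjusted p of 0.0584 to 0.312. Zcchc6 also missed it under both scalings (1.37, adjusted p = 0.0519 and 0.166) and Ythdf2 with a pseudocount of 0.1 (2.13, adjusted p = 0.0502).

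From MII to the early 2-cell embryo Pabpn1l was the member with the clearest loss. It was at 48.0 and 41.3 FPKM in WT MII and at 1.90 and 2.35 in early 2-cell embryos, a log2 fold change of -3.87 ± 0.47 (SE, limma adjusted p = 9.9e-07). Btg4 was at 3057 and 1783 FPKM in early 2-cell embryos, with an adjusted p of 0.89 against MII. Btg4 RNA thus overlapped its MII level at a stage when Pabpn1l RNA was far below its own. Zcchc6 fell from 4.02 and 4.19 to 0.733 and 0.319 (-1.75 ± 0.42, adjusted p = 0.0034), and Ythdf2 fell from 24.0 and 29.8 to 14.1 and 2.96 (-1.85 ± 0.65, adjusted p = 0.040). Hence 3 of 9 members fell, against 19.5% of all genes down and 21.6% called in all. The early 2-cell libraries overlapped MII for Btg4, Cnot6l and Cnot7. Ythdf2 missed the threshold without WT MII replicate 1, WT MII replicate 2 or WT early 2-cell replicate 2, at adjusted p of 0.111 to 0.558. Cnot8, at 94.1 and 18.0 FPKM (adjusted p = 0.062), was called without WT early 2-cell replicate 1 (-2.92, adjusted p = 0.0027). Scaling without Rn45s and to equal sums, which moved the median of all genes from -0.44 to -0.04, left Pabpn1l as the only call among the 9. Ythdf2 was also lost with a pseudocount of 0.1 or no filter (adjusted p = 0.0573 and 0.0633).

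At the late 2-cell stage, when the embryo's own genome is active, Btg4 and Ythdf2 moved in opposite directions. Btg4 was at 197, 519.5 and 415 FPKM in WT late 2-cell embryos, all below both early 2-cell libraries. Its log2 fold change was -2.74 ± 0.54 (SE, limma adjusted p = 0.00019). Ythdf2 was at 75.6, 52.2 and 52.7 FPKM, all above the early 2-cell values of 14.1 and 2.96 and above MII. It rose by 2.96 ± 0.59 against early 2-cell (adjusted p = 0.00023). Zcchc6 was back at 3.66, 4.12 and 3.62 FPKM (1.66 ± 0.39, adjusted p = 0.0011). Cnot8 was at 178, 108 and 114 FPKM, above both early 2-cell libraries (1.63 ± 0.62, adjusted p = 0.037). In all, 1 member fell and 3 rose, where 37.4% of all genes were called, 34.2% up and 3.16% down, and the median of all genes was 0.72. Relative to that median Cnot8 and Zcchc6 were up by 0.91 and 0.95 only, and Btg4 was down further, at -3.45. Cnot8 missed the threshold without WT early 2-cell replicate 2, WT late 2-cell replicate 1 or WT late 2-cell replicate 3, at adjusted p of 0.0554 to 0.672. It was also lost under median-ratio scaling (0.47), with Rn45s left out (1.27, adjusted p = 0.0517) and with no filter (adjusted p = 0.0585), and Zcchc6 under median-ratio scaling (1.01, adjusted p = 0.0846). Under that scaling Cnot6l, Cnot7 and Pabpn1l were called lower, which they were not as deposited. Zcchc11 (TUT4), at 1.10, 1.63 and 2.00 FPKM against 0.484 and 0.147, was just short of the fold threshold (0.97 ± 0.38, adjusted p = 0.041), and was called without WT early 2-cell replicate 1 or WT late 2-cell replicate 1 (1.11 to 1.15). Set against MII directly, Btg4 (-2.50 ± 0.54, adjusted p = 0.00040) and Pabpn1l (-4.49 ± 0.43, adjusted p = 7.6e-09) were down and Zcchc11 was up (1.11 ± 0.38, adjusted p = 0.017). That is 2 of 9 down and 1 up, against 17.3% and 24.6% of all genes, 41.9% in all. Zcchc11 missed it without WT MII replicate 1, WT MII replicate 2 or WT late 2-cell replicate 3 (0.99 to 1.20, adjusted p of 0.0587 to 0.116), and fell short of the fold under median-ratio scaling (0.79). Under that scaling Cnot6l (-1.12) and Cnot7 (-1.56) were called lower, and Ythdf2 was called higher with Rn45s left out (1.56).

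Between the late 2-cell and 4-cell stages RNA of Btg4 and of the deadenylases Cnot6l and Cnot7 fell, while Cnot8 and Ythdf2 did not pass the test. Btg4 fell to 35.0, 24.9 and 32.3 FPKM (-3.48 ± 0.48, limma adjusted p = 2.7e-05). Cnot6l fell from 13.7, 19.9 and 20.5 to 2.69, 1.81 and 1.96 FPKM (-2.58 ± 0.47, adjusted p = 0.00066). Cnot7 fell from 138, 121 and 109 to 25.2, 29.4 and 21.9 FPKM (-2.23 ± 0.58, adjusted p = 0.011). The stages did not overlap for any of the 3. These 3 of 9, against 11.3% of all genes down and 13.1% called in all, kept their calls under every alternative run here. Cnot8 was at 121, 134 and 90.8 FPKM and Ythdf2 at 78.7, 97.4 and 60.0, and both overlapped their late 2-cell values. Pabpn1l was at 0 to 0.132 FPKM in the 3 4-cell libraries, and without WT late 2-cell replicate 1 it was called as well (-1.26, adjusted p = 0.0498). In WT blastocysts Btg4 and Pabpn1l were listed at 0 in both libraries. Cnot8 fell to 22.9 and 10.8 FPKM (-2.78 ± 0.62, adjusted p = 0.0010), Ythdf2 to 23.5 and 12.7 (-2.09 ± 0.59, adjusted p = 0.0081) and Btg4 had a log2 fold change of -4.97 ± 0.54 (adjusted p = 3.7e-08). These 3 of 9 stood against 17.7% of all genes down and 28.3% called. Without WT blastocyst replicate 2, Ythdf2 missed the threshold (-1.68, adjusted p = 0.131).

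**Figure D1:**
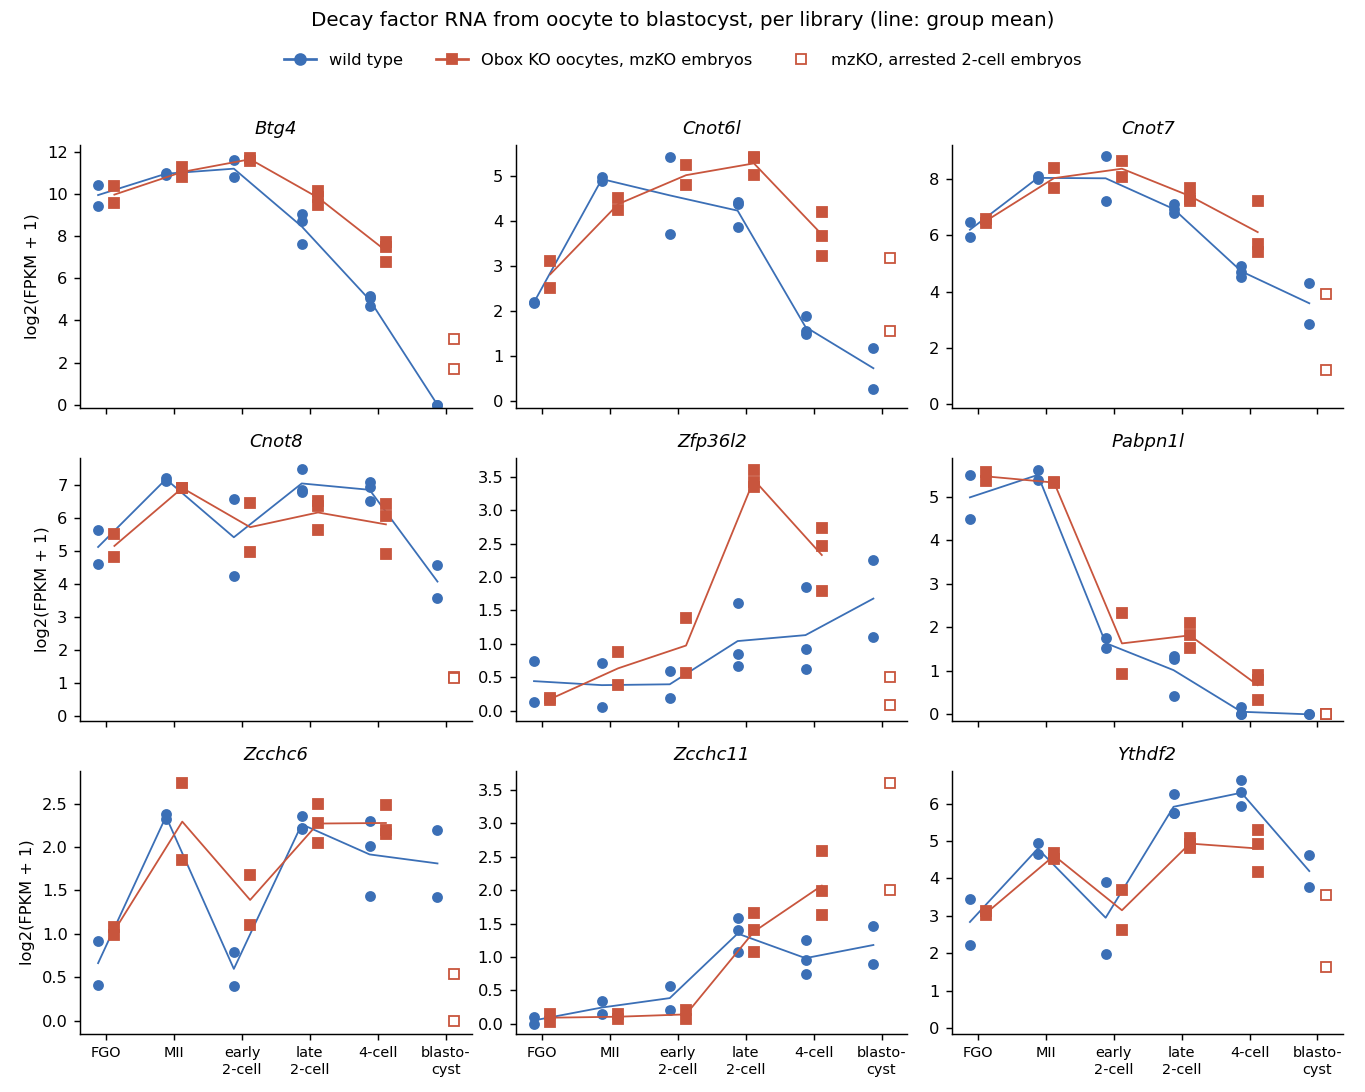
Log2(FPKM + 1) of each of the 9 genes by stage, 1 panel per gene, with 1 point per library. Circles are WT, filled squares are Obox KO oocytes or mzKO embryos, open squares are arrested mzKO embryos, and lines join group means. At the late 2-cell and 4-cell times all mzKO libraries lay above WT for Btg4 and Cnot6l and below WT for Ythdf2, where the late 2-cell differences of Cnot6l and Ythdf2 were not called, and Zfp36l2 lay above WT in mzKO late 2-cell embryos.

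The order of the levels put Btg4 first among the 9 at every WT stage up to the late 2-cell embryo and below Cnot8 and Ythdf2 at the 4-cell stage. Over the 12 replicated groups of the main table its highest mean was 3187 ± 241 FPKM (SD, n = 2) in mzKO early 2-cell embryos, and the next groups, WT early 2-cell, Obox KO MII and WT MII, overlapped one another. Below these and the FGO groups, mzKO late 2-cell (917 ± 204, n = 3), WT late 2-cell (377 ± 164, n = 3), mzKO at the 4-cell time (162 ± 50.6, n = 3) and WT 4-cell (30.7 ± 5.19, n = 3) followed, the first pair and the last pair without overlap. Across all tables Btg4 was at 45.3 FPKM or more in each of 55 oocyte and 2-cell libraries, arrested embryos left out, and at 1.20 or less in 9 blastocyst libraries. Zfp36l2, Zcchc6 and Zcchc11 were the low members: the highest group means were 9.98 ± 1.03 (n = 3, mzKO late 2-cell) for Zfp36l2, 4.14 ± 2.18 (n = 2, Obox KO MII) for Zcchc6 and 7.09 ± 5.78 (n = 2, arrested mzKO) for Zcchc11. Ythdf2 was highest in WT 4-cell (78.7 ± 18.7) and WT late 2-cell embryos (60.2 ± 13.4, both n = 3), which overlapped, and the latter did not overlap mzKO late 2-cell embryos, next at 29.6 ± 2.71 (n = 3).

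The CAF1-type enzymes changed places over these stages, a measure that was chosen after the values were seen and is given without a test. Cnot8 made up 35.1% and 35.1% of the summed Cnot7 and Cnot8 FPKM in the WT MII libraries and 17.2% and 10.7% at the early 2-cell stage. It was 56.4%, 47.3% and 51.2% at the late 2-cell stage and 82.8%, 82.1% and 80.5% at the 4-cell stage. WT blastocysts had 54.9% and 63.3%. The WT stages from early 2-cell to 4-cell did not overlap. In mzKO the share was 17.7% and 10.1% at the early 2-cell stage, overlapping WT, but 23.4%, 37.9% and 28.2% at the late 2-cell stage, all below WT. At the 4-cell time it was 56.6%, 67.0% and 16.2%, again all below WT and widely scattered. The last value is of mzKO replicate 3, which had both the highest Cnot7 (150.2 FPKM) and the lowest Cnot8 (28.9). In mKO late 2-cell embryos it was 37.9% and 39.0% against 52.3% and 64.6% in their controls. In single embryos it went from 18.4% to 25.6% at the early 2-cell stage to 67.2% to 80.6% at the late 2-cell stage in Obox+-, and from 20.1% to 28.1% to 63.3% to 77.0% in Obox--. Low late 2-cell shares were also seen without loss of Obox. They were 18.7%, 31.2% and 29.6% in parthenotes (embryos without a paternal genome) given control siRNA. With control siRNA injected into zygotes the share was 26.4%, and with water 44.0%, in 1 library each.

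**Figure D2:**
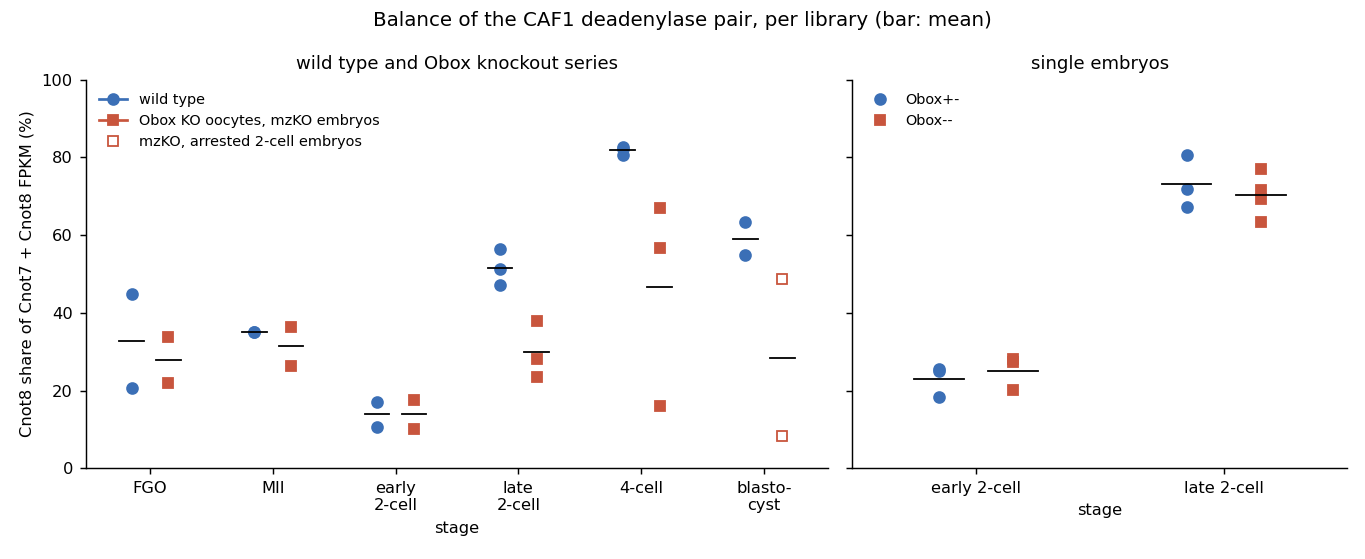
Cnot8 as a percentage of Cnot7 plus Cnot8 FPKM, with 1 point per library, in the main table by stage and in single Obox+- and Obox-- embryos. Late 2-cell mzKO libraries lay at 23.4% to 37.9%, below the 47.3% to 56.4% of WT in the main table, whereas Obox-- and Obox+- late 2-cell embryos overlapped.

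Loss of Obox left the 9 messages of the oocyte and of the early 2-cell embryo without a called change. Btg4 was at 749.9 and 1321 FPKM in Obox KO FGO and at 1764 and 2493 in Obox KO MII, each range overlapping WT. Cnot7 was at 205 and 335 in Obox KO MII, on either side of WT, and Pabpn1l at 39.7 and 38.8, just below it. Cnot6l, at 17.8 and 21.8 FPKM, was below the WT MII values of 30.3 and 28.5 (-0.56 ± 0.58, limma adjusted p = 1). Cnot8, at 118 to 119 against 138 to 148, and Zcchc11, at 0.0495 to 0.102 against 0.111 to 0.260, were also below WT in MII. In FGO, Cnot6l was above WT, at 4.71 to 7.69 against 3.53 to 3.62, as was Zcchc6, at 0.988 to 1.12 against 0.331 to 0.883. Zcchc6 was above WT in early 2-cell mzKO embryos too, at 1.15 to 2.19 against 0.319 to 0.733. In early 2-cell mzKO embryos Btg4 was at 3017 and 3358 FPKM and Pabpn1l at 4.05 and 0.901. With limma, 0 of 9 members were called in FGO, MII or early 2-cell embryos, where 0.0715%, 0.0572% and 0.4% of all genes were called. The numbers of genes with an unadjusted p under 0.05 were 53, 159 and 331 of 13989. The standard errors of these log2 fold changes were 0.41 to 0.72, so a missed threshold does not show that the levels were alike.

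At the late 2-cell stage Btg4 and Zfp36l2 RNA was higher in mzKO than in WT. Btg4 was at 716, 911 and 1124 FPKM in mzKO against 197, 519.5 and 415 in WT. Zfp36l2 was at 11.1, 9.13 and 9.68 against 0.592, 0.798 and 2.05. The mzKO libraries were above all WT libraries for both. Zfp36l2 had the larger change, 2.41 ± 0.38 (SE, limma adjusted p = 5.4e-05), and no alternative removed its call. Btg4 rose by 1.37 ± 0.48 (adjusted p = 0.048), at the edge of the threshold. These 2 of 9 compare with 4.74% of all genes up, 10.7% down and 15.5% called in all. Without any of the 3 mzKO libraries, or WT replicates 1 or 3, the Btg4 change was 0.96 to 1.53 with adjusted p of 0.0525 to 0.277, and with a pseudocount of 0.1 its adjusted p was 0.0857. Cnot6l was at 41.6, 40.9 and 31.5 FPKM in mzKO against 13.7, 19.9 and 20.5 in WT, also without overlap, and missed the test (1.05 ± 0.47, adjusted p = 0.12), though it was called under each scaling (1.14 to 1.23, adjusted p of 0.0146 to 0.0441). On the other side, Cnot8 was at 48.1, 89.9 and 80.7 FPKM against 178, 108 and 114 (-0.88 ± 0.55, adjusted p = 0.29). Ythdf2 was at 32.5, 29.0 and 27.2 against 75.6, 52.2 and 52.7 (-0.98 ± 0.53, adjusted p = 0.21). Both were lower in every mzKO library than in any WT library without passing the test. Cnot7 was at 158, 147 and 205 FPKM against 138, 121 and 109, and Pabpn1l at 1.90, 2.52 and 3.28 against 0.339, 1.42 and 1.55, again above WT in every library and not called. Zcchc6 and Zcchc11 overlapped, with changes of 0.01 and 0.03.

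At the time when controls had reached the 4-cell stage, 5 of the 9 members were called, with Btg4 and Cnot6l higher and Ythdf2 lower in mzKO. Btg4 was at 107, 206 and 174 FPKM in mzKO embryos and at 35.0, 24.9 and 32.3 in WT. Cnot6l was at 11.6, 8.38 and 17.4 against 2.69, 1.81 and 1.96. No mzKO library reached down to WT for either. Btg4 rose by 2.33 ± 0.48 (SE, limma adjusted p = 0.00087) and Cnot6l by 2.05 ± 0.47 (adjusted p = 0.0022), and both calls held under all alternatives run here. Zcchc11 rose as well, from 1.40, 0.668 and 0.929 to 2.98, 5.01 and 2.09 FPKM (1.09 ± 0.34, adjusted p = 0.018), and so did Zfp36l2, from 0.889, 2.61 and 0.544 to 5.63, 4.51 and 2.47 (1.20 ± 0.38, adjusted p = 0.022), whose lowest mzKO library lay below the highest WT one. Ythdf2 fell from 78.7, 97.4 and 60.0 to 29.2, 38.5 and 17.1 FPKM without overlap (-1.49 ± 0.53, adjusted p = 0.037). That makes 4 of 9 up and 1 down, against 14.2% and 10.4% of all genes, 24.6% in all. Cnot7 was at 50.5, 41.9 and 150.2 FPKM against 25.2, 29.4 and 21.9, above WT in each library (1.40 ± 0.58, adjusted p = 0.073), and was called without mzKO replicate 2 (1.75, adjusted p = 0.0433) and under both scalings (1.59 and 1.79, adjusted p = 0.0283 and 0.0107). Cnot8, at 65.9, 85.0 and 28.9 against 121, 134 and 90.8, lay below WT in each (-1.05 ± 0.55, adjusted p = 0.16). Several calls rested on single libraries. Zfp36l2 missed the threshold without WT replicates 1 or 3 or mzKO replicate 1 (0.94 to 1.09, adjusted p of 0.0814 to 0.100), and Zcchc11 without WT or mzKO replicate 2 (0.83 to 0.96, adjusted p of 0.0798 to 0.0822). Ythdf2 missed it without WT replicates 1 or 2 or mzKO replicates 1 or 3 (-1.55 to -1.18, adjusted p of 0.0666 to 0.169). With a pseudocount of 0.1 all 3 missed it, at adjusted p of 0.0888 for Zfp36l2, 0.0539 for Zcchc11 and 0.0711 for Ythdf2, as did Ythdf2 with no filter (adjusted p = 0.053).

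Other markers differed as well, though the oocyte sums overlapped at the late 2-cell stage. The summed FPKM of 10 oocyte genes was 606 to 1140 in WT and 993 to 1747 in mzKO late 2-cell embryos, and 149 to 198 against 216 to 540 at the 4-cell time. The sum of 10 fibroblast genes was 1.82 to 3.61 in WT and 16.0 to 20.7 in mzKO late 2-cell embryos, and 0.538 to 0.797 against 7.10 to 14.0 at the 4-cell time. Of these, 2 and 4 genes reached 1 FPKM in WT and mzKO late 2-cell embryos, and 0 and 4 at the 4-cell time. Most of the mzKO sum was Vim, the intermediate filament gene vimentin, at 13.4 to 14.8 FPKM in mzKO and 0.25 to 0.50 in WT late 2-cell embryos, and at 4.70 to 11.3 against 0 to 0.157 at the 4-cell time. The fibronectin gene Fn1 was at 0.997 to 1.13 against 0.234 to 0.269, and then at 0.887 to 1.12 against 0.0377 to 0.352. The collagen genes that define fibroblasts were at or near 0: Col1a2 was listed at 0 in all of these libraries, Col3a1 reached 0.0386 in mzKO late 2-cell embryos and was at 0 elsewhere, and Col1a1 was at most 0.755. Their part in the results was not tested. The mzKO embryos of the 4-cell time are named for the time of their controls, so a genotype difference and a difference in cell stage cannot be told apart there.

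**Figure D3:**
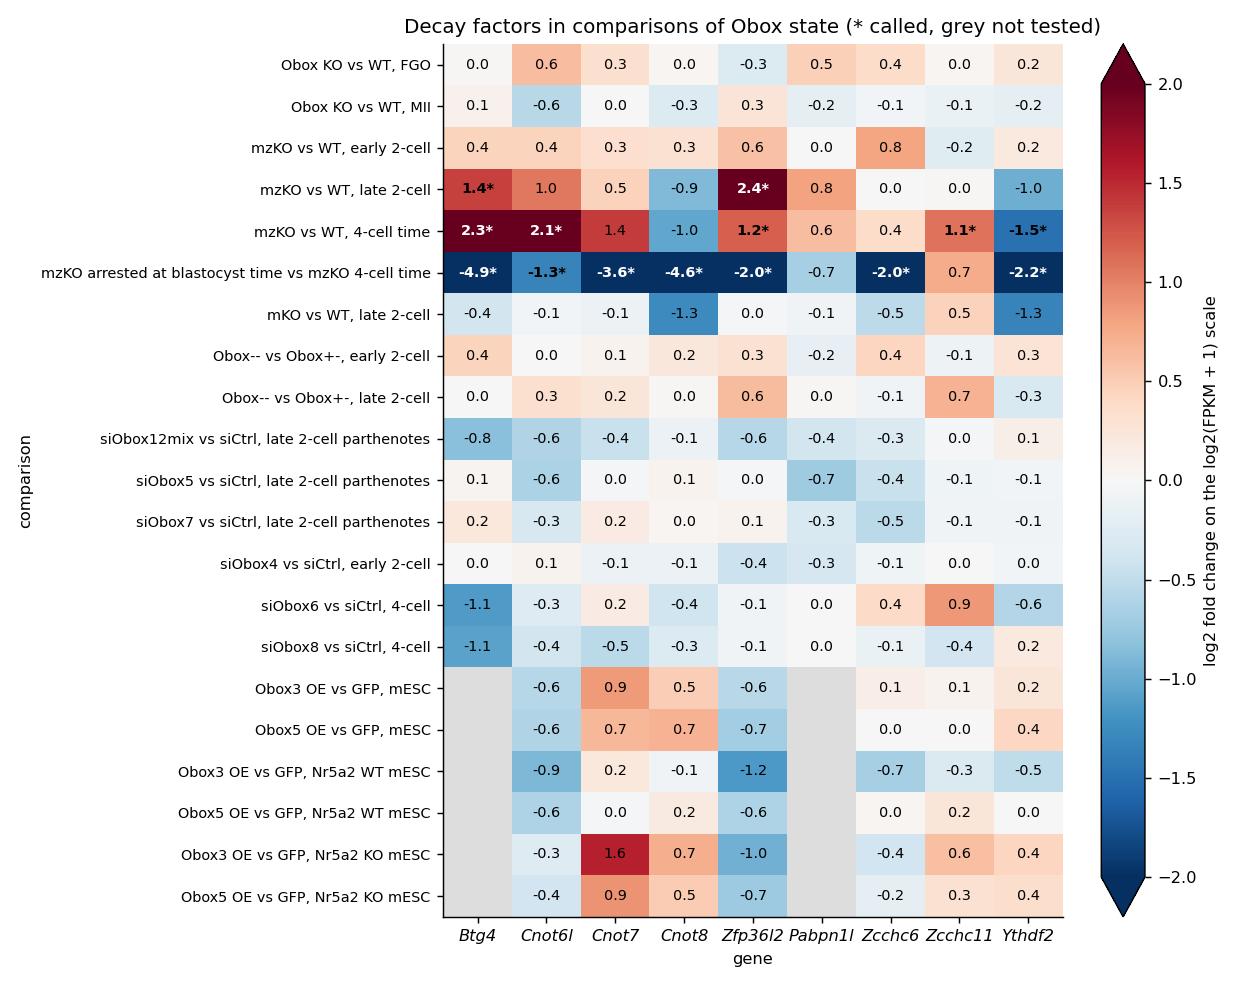
Log2 fold changes of the 9 genes in comparisons of Obox-deficient with control libraries. Arrested mzKO embryos against mzKO of the 4-cell time, and ESCs with Obox3 or Obox5 against GFP, are also shown. Colour runs from blue (lower) to red (higher) and is capped at 2 in size, an asterisk marks a call, and grey marks a gene that was not tested. Calls appear in the mzKO embryos at the late 2-cell and 4-cell times and in the arrested embryos, where 7 of 9 fell against 60.7% of all genes. None appear in the oocytes, the early 2-cell mzKO, mKO and Obox-- embryos, the knockdowns or the ESCs.

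The levels of these messages over time were also followed within Obox-null samples. Loss of RNA, a shorter tail and a smaller share of the library cannot be told apart there. From Obox KO MII to mzKO late 2-cell embryos Pabpn1l fell from 39.7 and 38.8 to 1.90, 2.52 and 3.28 FPKM (-3.51 ± 0.43, limma adjusted p = 7.5e-07). Btg4 went from 1764 and 2493 to 716, 911 and 1124 FPKM (-1.22 ± 0.54, adjusted p = 0.081), and was called at the same fold when the arrested libraries were left out of the fit (adjusted p = 0.0473). The WT change was -2.50. Zfp36l2 rose by 2.82 ± 0.43 (adjusted p = 1.3e-05) from 0.312 and 0.839 FPKM in MII, where WT had 0.643 and 0.0366. All mzKO late 2-cell libraries were above both MII libraries. Zcchc11 rose by 1.27 ± 0.38 (adjusted p = 0.0099), a call lost without Obox KO MII replicate 1 or 2 (adjusted p of 0.0597 to 0.0751). These calls, 2 up and 1 down of 9, stood against 18.1% and 13.4% of all genes, 31.5% in all. From the late 2-cell to the 4-cell time Btg4 fell in mzKO by 2.52 ± 0.48 (adjusted p = 0.0023) and Cnot6l by 1.58 ± 0.47 (adjusted p = 0.040), 2 of 9 down against 4.44% of all genes, with 6.12% called in all. The Cnot6l call was lost without any of the 3 late 2-cell libraries or mzKO 4-cell-time replicates 1 or 2 (-1.70 to -1.34, adjusted p of 0.0816 to 0.199) or with a pseudocount of 0.1 (adjusted p = 0.126), and Cnot7 was called without replicate 3 (-1.85, adjusted p = 0.0494).

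Whether the steps themselves differed between genotypes was tested as a difference of changes. For MII to late 2-cell, Zfp36l2 differed by 2.16 ± 0.61 (limma adjusted p = 0.045), the 1 member of 9 called, against 0.443% of all genes called in that direction and 3.1% in all. This call was lost without any of 9 of the 10 libraries compared, WT late 2-cell replicate 3 being the exception (1.83 to 2.49, adjusted p of 0.0587 to 0.286). It was also lost with a pseudocount of 0.1, with no filter and under both scalings (2.11 to 2.26, adjusted p of 0.0685 to 0.512). Btg4 differed by 1.28 ± 0.76 (adjusted p = 0.43) and Cnot6l by 1.60 ± 0.74 (adjusted p = 0.29). For late 2-cell to 4-cell, 0 of 9 were called against 1.17% of all genes, with 1649 genes at an unadjusted p under 0.05. Btg4 differed by 0.96 ± 0.68 and Cnot6l by 1.00 ± 0.66 (adjusted p = 0.66 and 0.62). The higher Btg4 of mzKO embryos was therefore called at both stages, while neither step was shown to differ.

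Embryos labelled arrested mzKO and embryos given Obox mRNA gave the end of the course. Btg4 was at 7.78 and 2.26 FPKM in the arrested libraries, and listed at 0 in both WT blastocyst libraries. It was also listed at 0 in each of the 3 single mzKO libraries given Obox157, Obox3 or Obox4, which are labelled blastocysts for Obox157 and Obox3 and arrested 2-cell embryos for Obox4. Cnot8 was at 1.28 and 1.21 FPKM in arrested embryos, at 25.1 with Obox157, 11.6 with Obox3 and 8.04 with Obox4, and at 22.9 and 10.8 in WT blastocysts. Ythdf2 was at 17.6, 11.5 and 6.21 FPKM with the 3 treatments, and at 23.5 and 12.7 in WT. With 1 library each there is no replicate check, and the Obox genes checked were at 0.0871 FPKM or less in all 3. Against mzKO of the 4-cell time, 7 of 9 members fell in arrested embryos, where 60.7% of all genes fell, 61.5% were called and the median of all genes was -1.52. Relative to that median Btg4 was at -3.36, Cnot8 at -3.12 and Cnot7 at -2.05. Cnot6l (-1.33) and Ythdf2 (-2.21) fell as FPKM but turned to 1.26 and 0.45 under median-ratio scaling and to 1.65 and 0.80 with Rn45s left out. Under both scalings Cnot7, Zfp36l2 and Zcchc6 missed the threshold (adjusted p of 0.158 to 0.334) and Zcchc11 was called higher (3.36 and 3.89). Without arrested replicate 1, the library with Obox3, the same number, 7 of 9, was called. Without the arrested replicate 2, Cnot6l (-0.53) and Ythdf2 (-1.24) missed the threshold and Zcchc11, at 11.2 and 3.00 FPKM, was called higher (1.54, adjusted p = 0.0026). Cnot6l also missed it without mzKO 4-cell-time replicate 3 (-1.08). Of the fibroblast genes, Vim was at 1.99 to 62.7 FPKM and Col1a1 at 1.46 to 31.7 in the arrested libraries. Every other gene of that list was at 0.353 or less there, with Col1a2 and Col3a1 at 0. Their part in the results was not tested.

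In mKO embryos, where Obox5 was at 0.284 to 0.606 FPKM and Obox3 at up to 14.4, Cnot8 and Ythdf2 were below their controls and Btg4 was not above them, without a call. Ythdf2 was at 36.4 and 24.7 FPKM in mKO late 2-cell embryos against 61.5 and 97.3 in their WT controls (-1.34 ± 0.39, limma adjusted p = 0.062). Cnot8 was at 57.5 and 87.1 against 148 and 203 (-1.28 ± 0.38, adjusted p = 0.068). Neither overlapped its controls. Btg4 was at 162 and 336 FPKM against 479 and 191, and Cnot6l at 19.2 and 12.3 against 17.4 and 14.8, both within the control spread or across it. Zfp36l2 was at 1.26 and 0.811 against 0.446 and 1.94. Thus 0 of 9 were called, against 12.9% of all genes, and 3411 of 10341 genes had an unadjusted p under 0.05. The fit had 2 residual degrees of freedom, and the median of all genes was -0.48, relative to which Ythdf2 was at -0.86 and Cnot8 at -0.80. Cnot8 was called without mKO replicate 2 (-1.57, adjusted p = 0.0113) and Ythdf2 without mKO replicate 1 (-1.61, adjusted p = 0.0147). Under median-ratio scaling the median moved to 0.08 and the changes of Cnot8 and Ythdf2 shrank to -0.60 and -0.67. The calls over all genes went with the scaling and the filter, from 12.9% to 0 genes under median-ratio scaling or with no filter, and to 2 genes with Rn45s left out. Other measures differed in mKO as well, apart from the oocyte list, which lay within the range of its controls. FPKM sums were 179978 and 184488 in mKO and 291113 and 293375 in controls, and the share in Rn45s was 2.2% and 3.0% against 0.320% and 0.746%. The sum of 10 fibroblast genes was 8.46 to 17.8 FPKM against 2.26 to 3.13, with Vim at 4.31 to 13.3 against 0.232 to 0.447 and Col1a1, Col1a2 and Col3a1 at 0 in all 4 libraries. The sum of 7 genes of the zygotic 2-cell list was 181 to 663 against 101 to 166, and that of the oocyte list 455 to 489 against 418 to 802. Their part in the results was not tested.

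Single Obox-- embryos, in which Obox3 was listed at 0 but Obox5 was at 272 to 497 FPKM at the early 2-cell stage, had Btg4 at late 2-cell levels that overlapped those of Obox+- embryos. In Obox+- embryos Btg4 was at 1440, 1593 and 1792 FPKM at the early 2-cell stage and at 85.6, 62.4 and 45.3 at the late 2-cell stage. In Obox-- embryos it was at 2693, 2116 and 1805 and then at 77.5, 62.6, 69.9 and 45.6. The late 2-cell values of the genotypes overlapped throughout, and the log2 fold change was -4.66 ± 0.25 in Obox+- and -5.09 ± 0.23 in Obox-- (SE, limma adjusted p = 1.2e-10 and 1.3e-11). Ythdf2 rose from 7.09, 10.1 and 14.5 to 98.2, 66.5 and 106 FPKM in Obox+- (3.01 ± 0.31, adjusted p = 2.0e-07). In Obox-- it rose from 15.2, 10.9 and 11.6 to 89.5, 60.7, 98.5 and 48.5 (2.43 ± 0.29, adjusted p = 9.8e-07). Cnot6l fell by 2.62 ± 0.28 and 2.31 ± 0.27 and Cnot7 by 2.18 ± 0.28 and 2.00 ± 0.26 in Obox+- and Obox-- (adjusted p of 4.3e-07, 7.4e-07, 3.3e-06 and 3.4e-06). With Cnot8 up in Obox+- (1.02 ± 0.31) and Zcchc11 up in Obox-- (1.65 ± 0.31, adjusted p = 0.00016), 5 of 9 members were called in each genotype, against 49.3% of all genes in Obox+- (28% up, 21.3% down) and 50.6% in Obox-- (25.8% up, 24.8% down). Cnot8 in Obox+- dropped below the thresholds without Obox+- early 2-cell replicates 1 or 2 or late 2-cell replicates 1 or 3 (0.82 to 1.00). It was called in Obox-- without early 2-cell replicate 1 (1.17). In Obox+-, Zcchc6 was called without early 2-cell replicate 2 or late 2-cell replicate 3 (1.04 to 1.29), and Zcchc11 without early 2-cell replicate 3 (1.10). Cnot8 fell short in Obox+- under median-ratio scaling (0.85) and was called in Obox-- with Rn45s left out (1.22, limma adjusted p = 0.00024). With a pseudocount of 0.1, Zcchc11 (2.26, adjusted p = 0.0186) and Zcchc6 (1.46, adjusted p = 0.0226) were called in Obox+-. Rn45s held 20.1% to 24.4% of FPKM in late 2-cell embryos and 3.24% to 7.44% in early ones.

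Between the genotypes themselves 0 of 9 members were called at the early 2-cell stage (0.461% of all genes called, 1451 at an unadjusted p under 0.05), at the late 2-cell stage (0.632%, 1561) or in the change between them (0.0939%, 1096). At the late 2-cell stage Btg4 differed by 0.01 ± 0.23, Cnot6l by 0.33 ± 0.27 and Ythdf2 by -0.31 ± 0.29. Zfp36l2, the member with the largest mzKO difference, was at 2.62, 2.60, 2.48 and 1.07 FPKM in Obox-- and at 1.41, 0.555 and 1.17 in Obox+-, and overlapped by its lowest library (0.63 ± 0.28, limma adjusted p = 0.32).

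**Figure D4:**
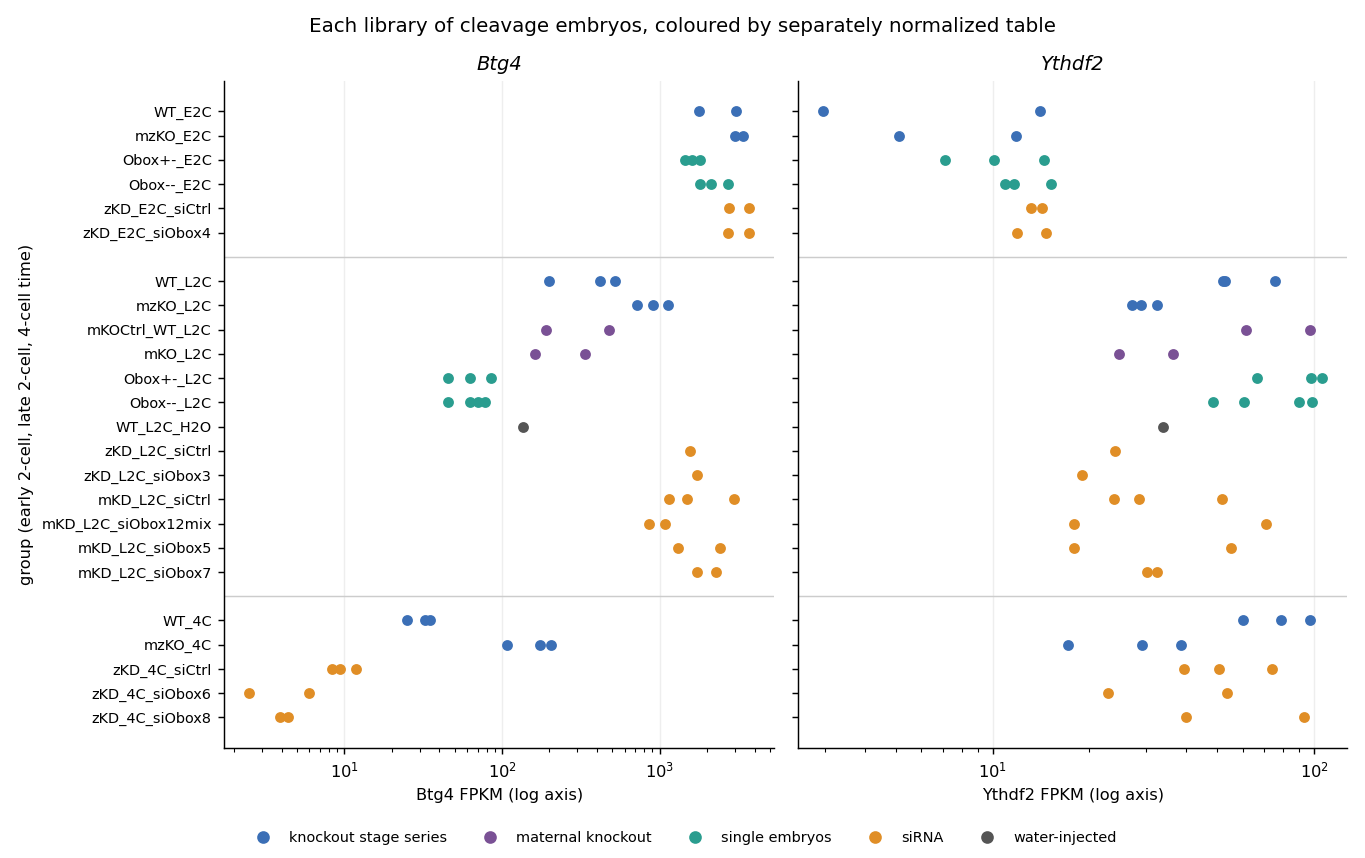
FPKM of Btg4 and Ythdf2 on a log axis in early 2-cell, late 2-cell and 4-cell libraries, by group and coloured by table. Oocytes, blastocysts and embryos given Obox mRNA are not shown. Btg4 was at 45.3 FPKM or more in every 2-cell library shown, and at 2.50 to 206 in the 4-cell groups. In the main table, Ythdf2 was higher in WT late 2-cell and 4-cell embryos than in WT early 2-cell embryos.

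Knockdown of single Obox genes or mixes gave 0 calls among the 9. The siRNAs (25 uM) were injected into FGO for maternal knockdown, followed in parthenotes, which have no paternal genome, or into zygotes. In late 2-cell parthenotes given control siRNA Btg4 was at 2960.1, 1144 and 1496 FPKM, where WT late 2-cell embryos of the main table had 197 to 519.5, and Ythdf2 at 23.8, 28.6 and 51.8, where those had 52.2 to 75.6. The tables were normalized separately, so these levels are set side by side only. With siObox12mix Btg4 was at 852 and 1079.8 FPKM, below all 3 controls (-0.84 ± 0.44, limma adjusted p = 1). With siObox5 it was at 2422 and 1309 and with siObox7 at 2278 and 1718, within or near the control spread. At the 4-cell stage, Btg4 was at 5.99 and 2.50 FPKM with siObox6 and at 3.89 and 4.40 with siObox8, below the 9.43, 11.9 and 8.36 of controls (-1.13 ± 0.44, adjusted p = 0.95, and -1.07 ± 0.44, adjusted p = 1). Both changes were below 0, where that of mzKO embryos at the 4-cell time was above 0. Obox6 and Obox8 were not among the Obox genes checked, so their knockdown was not verified here. Obox5 was at 2.31 to 9.30 FPKM with siObox5 against 367 to 818 with control siRNA, and Obox7 at 0.406 to 1.61 with siObox7 against 10.7 to 40.1. Obox1 was at 0.638 to 0.991 with siObox12mix against 112 to 385, and Obox4 at 3.38 to 10.7 with siObox4 against 37.4 to 51.7. Calls were made for 0.0233% of all genes with siObox12mix, 0.0233% with siObox5, 0.00776% with siObox7, 0.00776% with siObox4 in early 2-cell embryos, 0.0699% with siObox6 and 0% with siObox8, with 117 to 546 of 12881 genes at an unadjusted p under 0.05. In the single late 2-cell libraries of zygotic knockdown, Zfp36l2 was at 3.73 FPKM with siObox3 and at 0.922 with control siRNA, and Pabpn1l at 1.26 and 0.0416. These 2 of 9 differed by over 2-fold, as did 9.55% of all genes, and Btg4 was at 1733 and 1563.

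Gain of Obox was followed in embryos and in ESCs. In WT embryos, 1 library each, injection of Obox1 mRNA gave 1.84 FPKM of Zfp36l2 against 0.357 with water and 16.4 of Ythdf2 against 33.8 at the late 2-cell stage, 2 of 8 members past 2-fold where 16.7% of all genes were. With Obox5, Pabpn1l was at 2.01 against 0.303, 1 of 8 against 5.62%. With Obox2 and Obox3, 0 of 7 each differed by 2-fold (3.75% and 6.1% of all genes), nor did any member in blastocysts of the 4 injections (4.67% to 49.1%) or in mKO against WT blastocysts (5.88%). In ESCs, Btg4 and Pabpn1l were at or near 0 and 7 members were tested. Overexpression of Obox3 or Obox5, with Nr5a2 (a nuclear receptor gene) present or deleted, gave 0 calls among the 7 where 0.663% to 3.56% of all genes were called. The percentages were 3.02 and 2.18 for Obox3 and Obox5 in the first ESC table, 0.935 and 0.663 with Nr5a2 present, 3.56 and 0.935 with Nr5a2 deleted, and 2.04 for the deletion itself. Between 692 and 2200 genes had an unadjusted p under 0.05. Cnot7 was at 77.0 and 89.7 FPKM with Obox3 in Nr5a2 KO cells against 20.4 and 37.3 with GFP, without overlap (1.55 ± 0.47, limma adjusted p = 0.085), and was called under both scalings (1.40 and 1.46, adjusted p = 0.0294 and 0.0346). Zfp36l2 was below GFP in both libraries there, at 1.04 and 0.368 against 1.94 and 2.57 (-0.96 ± 0.37, adjusted p = 0.22, called at -1.07 under median-ratio scaling with an adjusted p of 0.0421), as it was with Nr5a2 present, at 1.11 and 1.52 against 3.51 and 4.81 (-1.15 ± 0.37, adjusted p = 0.15).

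The wider decay machinery, 100 further genes in 9 lists, of which 95 were tested in the main table, is given by the same counts. During WT maturation 36 rose and 1 fell, 37.9% up against 22.9% of all genes, with a median of 1.23 against 0.50 for all genes. The number up was 24 with no filter, 25 with a pseudocount of 0.1 and 12 or 13 under the scalings. Over all genes it was 2595 of 21775 with no filter and 2189 of 13989 with that pseudocount. It was 1591 of 13664 under median-ratio scaling and 1308 of 14429 with Rn45s left out. The share of the decay genes that rose was thus nearer to that of all genes under the scalings. From early to late 2-cell 43 rose and 1 fell, 45.3% up against 34.2% (median 1.08 against 0.72), with 23 up and 9 down under median-ratio scaling. Over all 13664 genes tested under that scaling, 2647 rose and 1428 fell. The 43 that rose as deposited held 13 of 16 genes of the RNA exosome, the complex that degrades RNA from the 3' end. In mzKO late 2-cell embryos 4 of the 95 rose and 8 fell (median -0.02 against 0.01), or 4.21% and 8.42%, which is near the 4.74% and 10.7% of all genes. Of 5 genes of the BTG/TOB family, adaptors related to Btg4, 2 rose: Btg2 was at 18.9 ± 2.49 FPKM in mzKO and 3.73 ± 1.61 in WT (SD, n = 3 each, limma adjusted p = 0.0080) and Tob1 at 55.4 ± 3.47 and 14.1 ± 4.28 (adjusted p = 0.016). Of the 16 exosome genes 4 fell, among them Exosc5, a core subunit, from 43.2 ± 19.0 to 2.59 ± 1.34 (-3.62 ± 0.54, adjusted p = 2.1e-05), and Exosc10, the nuclear exonuclease, from 23.2 ± 4.74 to 6.37 ± 2.63 (-1.77 ± 0.46, adjusted p = 0.0073). Pnldc1, a deadenylase-like enzyme that trims piRNAs, fell from a mean of 36.9 to 7.52 (-2.12 ± 0.44, adjusted p = 0.00095). At the 4-cell time 13 rose and 10 fell (median -0.16 against 0.16), 13.7% up against 14.2% of all genes, where 10.4% of all genes fell, with 3 of 5 BTG/TOB genes up, 1 exosome gene up and 6 down. Angel2, related to the CCR4-type deadenylases, rose from 11.4 ± 3.63 to 65.8 ± 24.5 (2.41 ± 0.47, adjusted p = 0.00049) and Dcp2, the decapping enzyme, from 3.48 ± 0.89 to 16.5 ± 3.78 (1.96 ± 0.47, adjusted p = 0.0030). In mKO late 2-cell embryos 0 of 87 rose and 13 fell (median -0.66 against -0.48), 14.9% down against 11.4% of all genes, and 8 of the 13 were among 15 exosome genes. None of the 13 calls was left under median-ratio scaling, with no filter or with Rn45s left out. In Obox-- against Obox+- late 2-cell embryos 0 of 93 were called.

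Genes with the course most like each member's were found by Pearson's r of mean log2(FPKM + 1) over the 12 replicated groups of the main table, among 8595 genes. For Btg4 they were Spin1 (r = 0.996), Arhgap20os (0.992) and Zbed3 (0.992). For Cnot6l they were Bmp2k, Ptbp2 and Fmn2 (0.987 each), and for Cnot7 Tgds (0.992), Cul1 (0.987) and Klhdc2 (0.985). Cnot8 was closest to Cers5 (0.989), Yipf4 (0.985) and Fam118a (0.983), and Ythdf2 to Tial1 (0.983), Ints2 (0.977) and Smarca4 (0.974). Pabpn1l was closest to Osbpl10 and Tspan14 (0.990 each) and Rdx (0.986), and Zfp36l2 to Itm2a (0.988), Urah (0.973) and Bex4 (0.965). The low genes Zcchc6 (Fbxw11, 0.967) and Zcchc11 (Cbx8, 0.949) had less close companions. These values describe the groups, which share libraries and scaling, and carry no test.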

How the data were processed

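The authors deposited their expression values as FPKM, in 7 tables. Build mm9, StringTie 2.1.2, HISAT2 2.2.1 and Trim Galore 0.6.6 are listed in the submitters' processing notes, beside tools of the other assays, and no tool is tied to a file there. Depth is unknown, so no counting interval was computed: ratios of low values shared no common step (at most 2.98% of them in a library fell on 1 ratio), and whole reads could not be recovered. Of 24143 gene names per table, 27 turned into dates were left out. No 2 libraries shared over 0.456% of identical nonzero values. The 28 samples of other assays were not analysed here.

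Tables were normalized separately and never tested together. limma 3.58.1 (R 4.3.3) was fitted to log2(FPKM + 1) over all replicated groups of a table, with trended, robust moderation. Genes with at least 1 FPKM in at least 2 libraries were tested, and the script was checked on simulated data. Residual degrees of freedom were 16 (main table), 2 (mKO), 9 (single embryos), 11 (knockdowns), 10 (ESCs with Nr5a2 untouched) and 6 (Nr5a2 ESCs). There were 32 comparisons of groups and 3 differences of changes, and 14 of the 35 had a member called. Groups and replicate numbers came from the titles. Numbers paired libraries only in the ESC table without Nr5a2 deletion, where deviations of same-numbered libraries correlated at 0.276 or more in each of 4 pairs for Obox3 and 0.414 or more for Obox5. Alternatives were a pseudocount of 0.1, no filter, median-ratio scaling (genes at 5 FPKM or more in every fitted library), equal sums without Rn45s, a replicate block and leaving out each library. Fits without the arrested libraries, alone and with median-ratio scaling, were added after seeing the data.

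Members and lists were chosen with earlier results of these data known. Named genes are all 9 members. Of other decay genes, up to 4 each way were eligible if called, at 5 FPKM or more in the higher group and without overlap between groups. The 3 genes most alike in course, leaving out predicted and Obox genes, were taken for each member. Figures were drawn with matplotlib 3.10.9.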

Additional observations from a re-analysis of the deposited data

Results flagged for a closer look

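Of 34 sets of values (1 member in 1 group of 4 or 5 libraries), 5 held a library set apart from the others. Chance gives about 5% of sets, which cannot be read against these 5, since in 3 of them all other libraries were at 0 and any value above 0 stands apart. In ESCs, Btg4 was at 0.266 FPKM in GFP replicate 4 and at 0.380 in Obox5 replicate 4, and listed at 0 in all other libraries of both groups. Pabpn1l was at 0.110 FPKM in GFP replicate 1 and at 0 in the other 4. Cnot7 was at 13.2 FPKM in Obox5 replicate 1 and at 38.1 to 39.1 in the other 3. In single Obox-- late 2-cell embryos, Zfp36l2 was at 1.07 FPKM in replicate 4 and at 2.48 to 2.62 in the other 3. A difference between genotypes was called for Zfp36l2, whose MII to late 2-cell change was larger by 2.16 (log2) in Obox-null than in WT samples.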

How the results depend on the processing

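With a pseudocount of 0.1, members called went from 2 to 1 for mzKO against WT at the late 2-cell stage, from 5 to 3 at the 4-cell time, from 2 to 1 for mzKO 4-cell time against late 2-cell, and from 1 to 0 for the difference of MII to late 2-cell changes. That difference was also at 0 with no filter, median-ratio scaling or Rn45s left out. Calls over all 13989 genes moved with the pseudocount as well. They went from 663 up and 1502 down to 452 and 1035 at the late 2-cell stage, and from 1990 and 1450 to 2229 and 1040 at the 4-cell time. For mzKO 4-cell time against late 2-cell they went from 235 and 621 to 112 and 376, and for the difference from 62 and 372 to 18 and 114. Leaving Rn45s out gave 1 in place of 3 for WT early 2-cell against MII and 5 in place of 3 for blastocyst against 4-cell. Over all genes, 292 up and 2733 down of 13989 became 399 and 1005 of 14429 for early 2-cell against MII. For blastocyst against 4-cell, 1474 and 2478 became 890 and 3193. Either scaling gave 4 in place of 7 in arrested embryos, where Cnot6l reversed to 1.26 and 1.65 and Ythdf2 to 0.45 and 0.80. Over all genes there, 112 up and 8490 down became 1388 and 4679 (median-ratio) and 1928 and 5223 (Rn45s out). Obox3 in Nr5a2 KO ESCs went from 0 to 2 (median-ratio), 1 (Rn45s out) and 1 (replicate block). Over all genes, 387 up and 32 down became 440 and 107 there under median-ratio scaling. With median-ratio scaling and no arrested libraries, chosen after seeing the data, the difference of late 2-cell to 4-cell changes went from 0 to 1. Over all genes, 133 up and 31 down became 373 and 66.

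With 1 library left out, members called ranged from 0 to 4 (WT MII against FGO), 2 to 4 (early 2-cell against MII), 3 to 5 (late against early 2-cell), 2 to 3 (late 2-cell against MII), 3 to 4 (4-cell against late 2-cell) and 2 to 3 (blastocyst against 4-cell). The ranges for mzKO against WT were 1 to 2 (late 2-cell) and 3 to 5 (4-cell time), and within Obox-null samples 2 to 3 (late 2-cell against MII), 1 to 3 (4-cell time against late 2-cell) and 6 to 7 (arrested). They were 0 to 1 for the difference of MII to late 2-cell changes, 0 to 1 for mKO, 4 to 6 for Obox+- and 5 to 6 for Obox-- late against early 2-cell, and 0 to 0 elsewhere. Of 1729 gene values with a library left out, 1658 kept their call or lack of one, 58 lost the call, 13 gained it and 0 called values reversed. Among the 1658, 174 values that were not called changed sign. Call status was kept by 286 of 301 values with the pseudocount, 297 with no filter and 298 with the replicate block. Under either scaling 279 of 300 kept it. The sign changed in 35 with median-ratio scaling and 30 with Rn45s left out, reversed calls included. The block added 3 calls (Cnot7 in WT MII against FGO, Cnot8 in WT early 2-cell against MII, and Cnot7 with Obox3 in Nr5a2 KO ESCs) and removed 0. Replicate numbers outside the first ESC table are not shown to pair libraries: every other comparison had either 2 pairs or a pair under 0.1. With 3 pairs, same-numbered mzKO and WT libraries correlated at 0.070 to 0.326 (late 2-cell) and 0.097 to 0.340 (4-cell time, where each of the 3 mzKO libraries correlated best with its own number). With 2 pairs, correlations ran from -0.559 (siObox8) to 0.688 (siObox4), with 0.621 for Obox KO against WT FGO, 0.655 for mzKO against WT early 2-cell and -0.316 for MII. The block changed the call of no member in that ESC table. Over all genes there, calls with Obox3 went from 316 up and 22 down to 452 and 211 with the block. With Obox5 they went from 233 and 11 to 387 and 88. The cause of these changes was not tested. Unknown depth limits Zfp36l2, Zcchc6, Zcchc11 and late Pabpn1l most, at a few FPKM.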
